A study of Bos taurus with 4 samples.

Results

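The loci described here are the sites of 8-oxoguanine (8-oxoG) that the sperm DNA lists of 2 bulls assign to TTI2, RNF122 and DUSP26, 3 neighbouring genes on bovine chromosome 27. They were selected on the gene symbol given to each called locus, so the presence of a locus near these genes, and the number of loci, chose the members and are given as a description. The rule found 31 of 984 loci in all, of which 13 of 370 were from the fertile bull C13 and 18 of 614 from the infertile bull C14. TTI2 had 8 loci in C13 and 10 in C14, RNF122 had 5 and 7, and DUSP26 had 0 and 1. This amounted to 3.51% of the list of C13 and 2.93% of that of C14.

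Both bulls were Korean native striped cattle of 6 years. C14 was infertile, with sperm of poor motility and abnormal shape according to the study. For each bull, sequencing (OG-seq) covered 1 8-oxoG-enriched sperm DNA library and 1 input library, and the loci were called per bull against its own input. With 1 bull and 1 library per condition there was no replicate: fertility, animal and library cannot be told apart, no p-value can be given between the bulls, and all intervals below cover counting error only. A library of DNA carries no RNA markers, so the labelled cell type, sperm, could not be checked.

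8-oxoG is the commonest oxidised form of guanine and forms preferentially where guanines stand next to each other. It pairs with adenine as well as with cytosine, and base excision repair, begun by the glycosylase OGG1, removes it. Sperm DNA is packed by protamines and late spermatids lose most of their repair, so that lesions made there can persist until fertilisation. In OG-seq, 8-oxoG is oxidised and bound to biotin, the fragments are captured, and captured fragments pile up at the lesion. The genes themselves have unrelated products: TTI2 joins TELO2 and TTI1 in the TTT complex, which stabilises the large kinases of DNA damage and growth signalling (ATM, ATR, MTOR and others), RNF122 is a membrane-bound RING finger ubiquitin ligase, and DUSP26 is a dual-specificity phosphatase that acts on MAP kinases.

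The DUSP26 locus was the only member outside the RNF122 gene as listed and the only one with a listed sequence, which is shown first for that reason. It lay at chr27:28968595-28968814 (bosTau8), was 220 bp wide and had its summit at 28968730, within the listed DUSP26 gene (28963364 to 28969954, minus strand, 6591 bp). It was annotated as promoter (1-2kb), and its near end was 1140 bp from the transcription start site (TSS), on the transcribed side. The strand of the listed sequences was not given, and runs of at least 3 G or 3 C are in capitals, since a run of C is a run of G on the other strand. Another 3 promoter loci of C14 are set beside it, those of LYZL4 (a lysozyme-like gene) and PGAP1 (a GPI-anchor processing enzyme) because their pileup was also the lowest in the list (that of ERCC4, a DNA repair nuclease gene, was too, but its sequence of 339 bases is not printed for its length), and that of TRIP10 (an adaptor of membrane curvature and the cytoskeleton) because its pileup was the highest among the promoter loci. The LYZL4 sequence spans chr22:15249915-15250142, the PGAP1 sequence chr2:85910077-85910294 and the TRIP10 sequence chr7:18960056-18960265.
DUSP26: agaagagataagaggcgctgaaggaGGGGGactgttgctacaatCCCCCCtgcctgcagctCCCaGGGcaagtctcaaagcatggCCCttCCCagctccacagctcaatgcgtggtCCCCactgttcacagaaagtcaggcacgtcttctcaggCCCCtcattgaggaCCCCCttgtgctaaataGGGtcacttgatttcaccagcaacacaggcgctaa
LYZL4: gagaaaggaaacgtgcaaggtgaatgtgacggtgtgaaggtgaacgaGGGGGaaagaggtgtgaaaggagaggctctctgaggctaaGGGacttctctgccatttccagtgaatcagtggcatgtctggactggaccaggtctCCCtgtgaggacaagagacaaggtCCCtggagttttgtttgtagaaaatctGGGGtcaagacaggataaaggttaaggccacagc
PGAP1: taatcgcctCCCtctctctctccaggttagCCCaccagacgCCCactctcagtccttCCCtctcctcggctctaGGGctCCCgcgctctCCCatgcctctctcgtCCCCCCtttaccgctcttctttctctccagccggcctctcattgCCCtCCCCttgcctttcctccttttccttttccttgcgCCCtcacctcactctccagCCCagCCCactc
TRIP10: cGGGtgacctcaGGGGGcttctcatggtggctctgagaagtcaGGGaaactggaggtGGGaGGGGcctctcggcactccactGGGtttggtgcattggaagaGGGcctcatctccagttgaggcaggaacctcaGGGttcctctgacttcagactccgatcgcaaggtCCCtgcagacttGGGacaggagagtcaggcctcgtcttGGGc

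The DUSP26 sequence was 55.9% G and C, with 54 G and 69 C among 220 bases. It held 3 runs of G and 7 runs of C, and its longest run had 6 bases. Counted on both strands, it had 40 steps of 2 adjacent guanines (GG, or CC for the other strand, overlapping steps counted), or 18.2 per 100 bases. The 9 other promoter loci, at 8 genes, ranged from 15.4 to 22.9 GG steps per 100 bases with a median of 20.6, and from 44.2% to 61.5% G and C with a median of 58.8%. DUSP26 was therefore in the middle of the promoter loci on both measures, with 5 above it on each. LYZL4 had the fewest GG steps, 15.4 per 100 bases, and PGAP1 the most, 22.9, at the same pileup as DUSP26. TRIP10 had 21.9 GG steps per 100 bases at a pileup of 41. These are counts in fixed listed sequences, which carry no counting error. The GC and GG content of the intron loci was not analysed here, because no sequence of them was at hand.

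**Figure D1:**
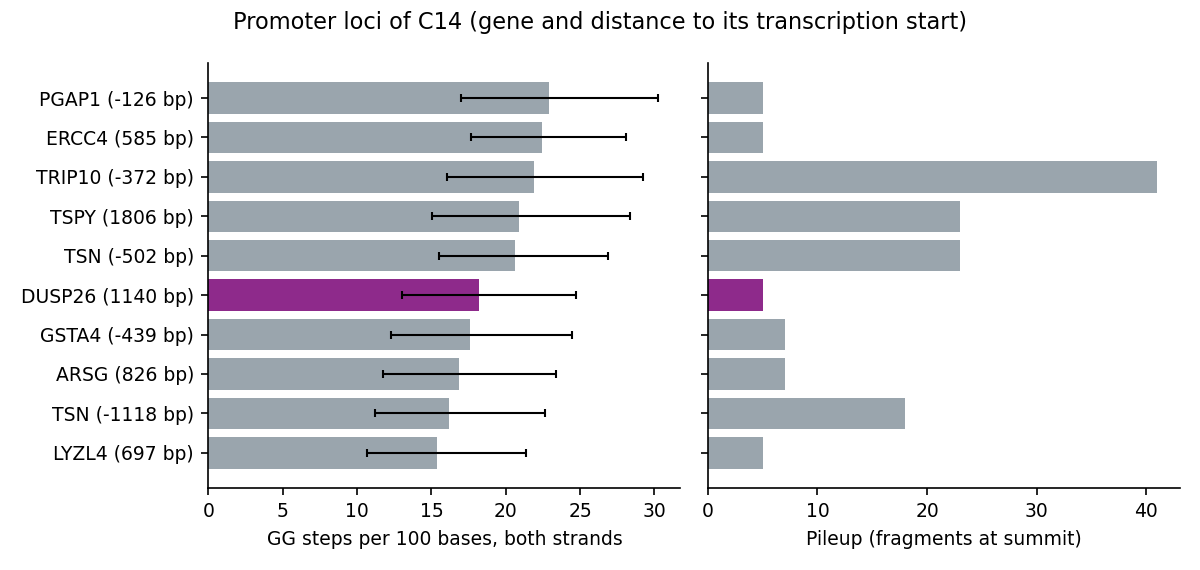
GG steps per 100 bases on both strands (left, bars start at 0) and pileup in fragments at the summit (right) of the 10 promoter loci of C14, with the distance to the TSS beside each gene. The error bars on the left are exact 95% Poisson intervals, which treat counts in fixed sequences as random and measure no error in them. DUSP26, in purple, lies in the middle of the GG counts and among the loci at a pileup of 5.

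In the C14 list the DUSP26 locus was among the weakest. Its pileup, the number of captured fragments at the summit, was 5 (exact Poisson 95% interval 1.62 to 11.7), which 41 of the 614 loci had and none went below. Its fold enrichment over the local background was 4.42, and 101 loci had a lower one. Its −log10 q was 1.71, and 30 loci were lower. The local background was 0.359, the lowest in the list, as at 50 C14 loci (within 0.0001). The other promoter loci had pileups from 5 to 41, and 4 of the 10, DUSP26 included, were at 5. No C13 locus overlapped it, the nearest being 30977 bp away at the RNF122 end of the cluster, and none of the 9 other promoter loci of C14 overlapped a C13 locus either, where 36.6% of all C14 loci did. C13 had 2 promoter loci in all. The coverage of C13 at this position was not analysed here, so its absence from that list is no measure of a difference.

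The 30 remaining loci, 13 in C13 and 17 in C14, were all annotated to the same intron. The annotation of every locus assigned to TTI2 or to RNF122 named intron 5 of 5 of RNF122 (transcript NM_001101920, gene number 510037), and none lay inside TTI2. The listed RNF122 gene ran from 28449633 to 28947295 on the minus strand, 497663 bp in length. Only 9 of the 353 distinct genes of the lists were longer, and their median length was 32744 bp. TTI2, on the same strand from 28415994 to 28427209, measured 11216 bp. The loci covered chr27:28460603-28937644, 477042 bp or 95.9% of the RNF122 gene, and stopped 9651 bp short of its TSS. The intron class of these loci, the length and the share of it they cover rest on this bosTau8 gene model. The listed RNF122 TSS, and with it the split of the loci between TTI2 and RNF122, rests on the same model. In the ARS-UCD2.0 gene table, another assembly, RNF122 spans 17985 bp, so that whether the loci lie inside RNF122 or between it and TTI2 could not be settled here.

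By this annotation the members were intronic more often than the lists. Of the C13 members 13 of 13 were intronic (Wilson 95% interval 77.2% to 100%) against 22.4% of all C13 loci, and of the C14 members 17 of 18 (74.2% to 99.0%) against 23.1% of all C14 loci. These loci share 1 annotated intron, the doubt about its extent applies to all of them, and they are not independent observations. They made up 15.7% of the 83 intronic loci of C13 and 12% of the 142 of C14.

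The symbols TTI2 and RNF122 record the nearest TSS. The TSSs of TTI2 and RNF122 are 520086 bp apart, and the point midway between them, 28687252, separates the loci named for each gene. The last locus on the TTI2 side, in C14, was 257147 bp from the TSS of TTI2 and 262728 bp from that of RNF122. The next, also in C14 and assigned to RNF122, was 286835 bp from the former and 232992 bp from the latter. In the lists of genes by number of loci, TTI2 was behind 2 genes in C13 and 5 in C14, and RNF122 behind 10 and 13. Counted by the annotated intron instead, which depends on the listed span, RNF122 would have 13 loci in C13 and 17 in C14, and TTI2 none.

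The group was isolated on the chromosome. The nearest listed loci were those of WRN, a RecQ helicase gene, 2073539 bp before the cluster in C13 and 2100095 bp in C14, and of UNC5D, a netrin receptor gene, 1628212 bp after it in C13 and 1595064 bp in C14. In ARS-UCD2.0 the protein-coding genes follow each other as FUT10, MAK16, TTI2, RNF122, DUSP26 and UNC5D. Of the loci on chromosome 27, the members were 13 of 30 in C13 and 18 of 60 in C14. Spacing was uneven. The 12 gaps between C13 loci ranged from 3389 to 103958 bp with a median of 35936 bp, and the 16 gaps between the intron loci of C14, DUSP26 left out, from 3369 to 88634 bp with a median of 16068 bp. This corresponds to 2.73 loci per 100 kb in C13 and 3.77 in C14, from lists of 370 and 614 loci. Spacing and density depend on the number of loci called in each list, and the libraries were not normalised to each other.

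**Figure D2:**
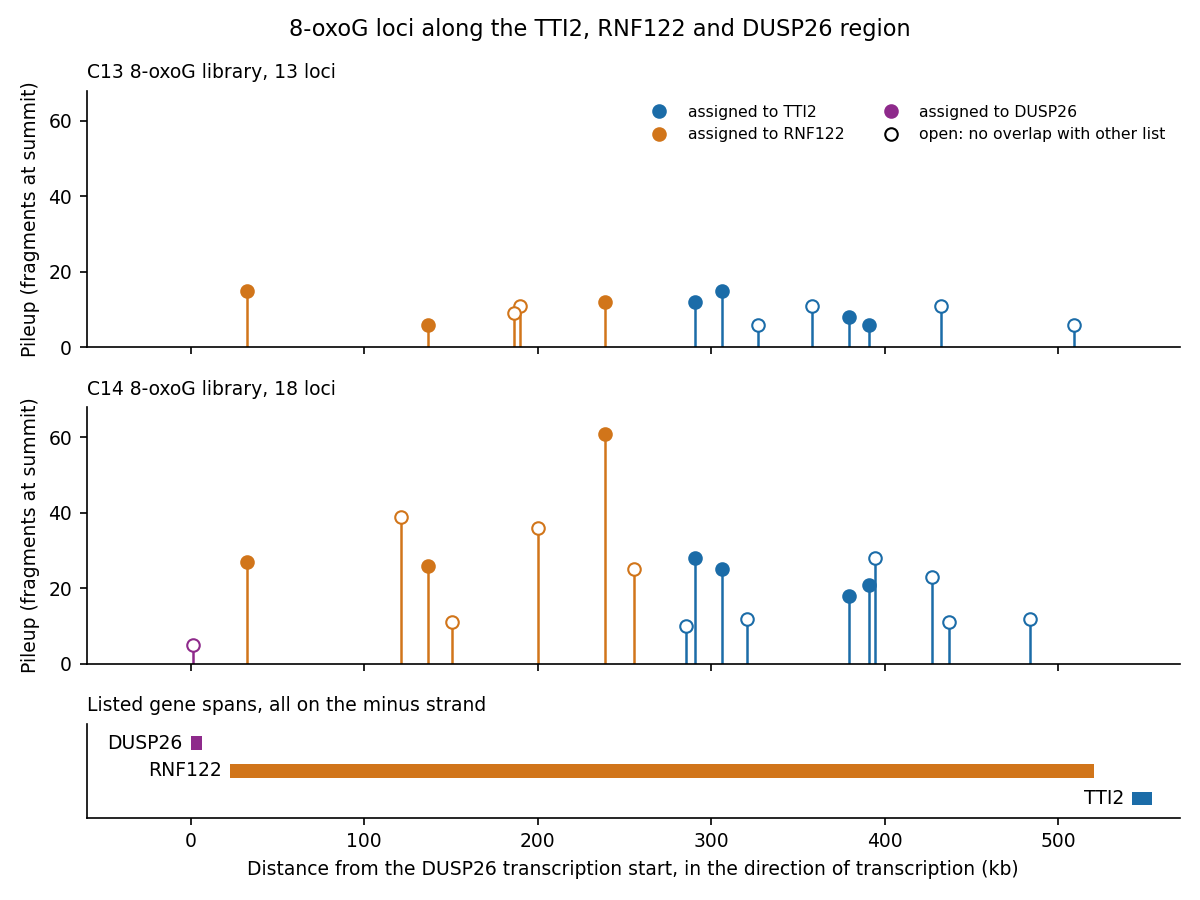
Pileup (fragments at the summit, axis from 0) of each locus in C13 and C14 against the distance from the DUSP26 TSS in kb, with the listed spans of the 3 genes drawn to scale below. Filled points overlap a locus of the other list; the loci named for TTI2 and for RNF122 lie within the listed span of RNF122, and the DUSP26 locus stands apart at a pileup of 5.

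In C13, the loci assigned to TTI2 had pileups from 6 to 15 with a median of 9.5. The one closest to TTI2, at chr27:28460603-28460884 and 33394 bp upstream of its TSS, had a pileup of 6. The next, at chr27:28537683-28537881, had 11, and the next, at chr27:28578782-28578971, had 6. The intervals of 6 (2.20 to 13.1) and 11 (5.49 to 19.7) overlapped, and the difference between these loci was not tested. A pileup of 8 was seen at chr27:28590602-28590898, of 11 at chr27:28611740-28611943 and of 6 at chr27:28642916-28643165. The last pair was the highest of the TTI2 loci: chr27:28663564-28663907 had a pileup of 15 (8.40 to 24.7) at a fold enrichment of 13.3, and chr27:28679046-28679442 had 12 (6.20 to 21.0) at 7.90.

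The RNF122 loci of C13 had pileups from 6 to 15 with a median of 11. From the midpoint towards the RNF122 TSS, chr27:28731360-28731550 had a pileup of 12, chr27:28779786-28780010 had 11, chr27:28783400-28783590 had 9 and chr27:28833243-28833439 had 6. The locus nearest the TSS, at chr27:28937398-28937617 and 9678 bp from it, had a pileup of 15 (8.40 to 24.7). It was the strongest C13 member by fold enrichment, 14.1, and by −log10 q, 21.6, while its local background, 0.135, was the lowest of the list. The RNF122 and TTI2 loci of C13 overlapped fully in pileup.

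In C14, the loci assigned to TTI2 had pileups from 10 to 28 with a median of 19.5. The 3 nearest to TTI2 were at chr27:28486291-28486528 with a pileup of 12, at chr27:28532769-28533044 with 11 and at chr27:28542897-28543103 with 23. The last of these stood on a high local background, 4.81, and its fold enrichment was only 4.13. The strongest TTI2 locus of C14 by fold enrichment, 19.9, and by −log10 q, 35.5, was chr27:28575193-28575411, with a pileup of 28 (18.6 to 40.5), 3370 bp from the nearest C13 locus and not overlapping it. Beside it, chr27:28578781-28579009 had a pileup of 21, chr27:28590627-28590900 had 18 and chr27:28649126-28649453 had 12. A group of 3 closed this side. A pileup of 25 at chr27:28663564-28663974 came with a fold enrichment of 14.4, whereas 28 at chr27:28679070-28679432 came with 5.05, since the local background there was 4.75. The locus closest to the midpoint, chr27:28684356-28684567, had a pileup of 10, and its −log10 q of 1.74 was the lowest among the intron loci.

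The RNF122 loci of C14 had pileups from 11 to 61 with a median of 27. The highest pileup of all members, 61 (46.7 to 78.4), was at chr27:28731345-28731600, and 92.7% of the C14 loci had a lower one. Its local background, 5.92, was also the highest of all members and 16.5 times the lowest of the list, so that its fold enrichment was 8.97. Another 2 RNF122 loci had over 30 fragments: chr27:28848535-28848762 had a pileup of 39 (27.7 to 53.3) and the highest −log10 q of all members, 38.5, and chr27:28769581-28769790 had 36 (25.2 to 49.8). The rest lay lower, with 25 at chr27:28714044-28714303, 11 at chr27:28819443-28819665, 26 at chr27:28833242-28833471 and 27 at chr27:28937397-28937644. This last locus, 9651 bp from the TSS, had the highest fold enrichment of all members, 20.6, on the lowest background of the list, 0.359, as its counterpart in C13 did.

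Set against the whole lists, the members had medians on either side of the list's in C13. In C14 the medians of the RNF122 loci were above the list's, those of the TTI2 loci were near it and DUSP26 was far below it. The RNF122 locus of C14 at chr27:28819443-28819665, with a pileup of 11, was below the list's median in pileup, fold enrichment and −log10 q. The median pileup was 11 in C13, where the list had 9, and 24 in C14, where the list had 18. The median fold enrichment was 6.99 against 7.56 in C13, and 10.3 against 6.76 in C14. The median −log10 q was 6.06 against 7.90 in C13, and 17.2 against 9.20 in C14. By gene, the 7 RNF122 loci of C14 had a median fold enrichment of 15.8, whereas the 10 TTI2 loci had 6.79. Their median −log10 q values were 28.0 for RNF122 and 8.69 for TTI2. The C14 fold enrichments overlapped, from 5.84 to 20.6 for RNF122 and from 4.04 to 19.9 for TTI2. In C13 the order was the reverse. There the RNF122 loci had a median fold enrichment of 6.17 and −log10 q of 5.24, and the TTI2 loci 7.43 and 6.90. The highest pileups of the lists, 74 and 182, were outside the members, whereas the lowest of C14 was that of DUSP26, shared with other loci. Local background at the members had a median of 0.321 in C13 (list 0.222) and 0.973 in C14 (list 1.09). The lowest background of the list (within 0.0001) was found at 2 of the 13 C13 members and 113 of all 370 C13 loci, and at 2 of the 18 C14 members and 50 of all 614 C14 loci. Because the libraries were not normalised to each other, pileup and fold enrichment of C14 and C13 are compared as ratios only at the shared loci.

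**Figure D3:**
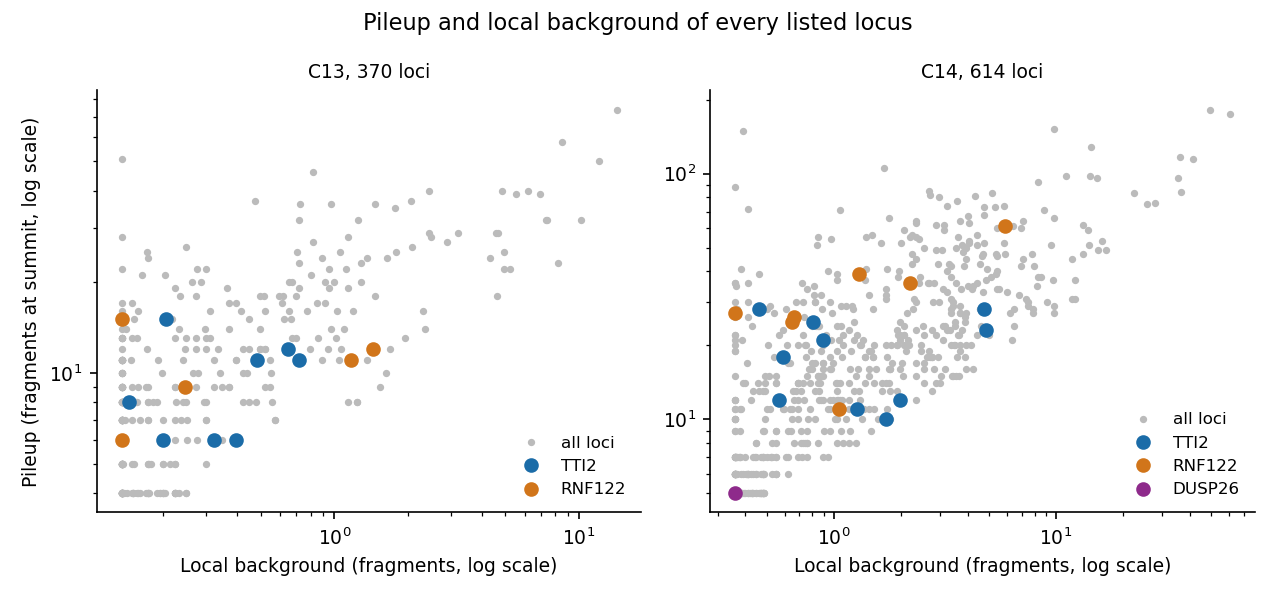
Pileup against local background, both in fragments on log scales, of every locus of C13 (left) and C14 (right), with the members in colour. The members lie inside the cloud of the other loci; the DUSP26 locus sits at its lower left corner, and the RNF122 locus at a pileup of 61 has the highest background of the members.

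Loci common to both bulls made up 7 of the 13 C13 members, or 53.8% (Wilson 95% interval 29.1% to 76.8%), where 57.0% of the whole C13 list had a C14 locus in the same place (1 bp or more in common). Of the 18 C14 members 7 were shared, or 38.9% (20.3% to 61.4%), where 36.6% of all C14 loci were. Both shares were close to those of the whole lists. Of the shared loci 4 were assigned to TTI2 and 3 to RNF122. Among C14 loci with at least the median pileup of the list, 18, 7 of 12 members overlapped a C13 locus, and 56.3% of all such loci did. The median pileup was 10 in the 6 C13 members without overlap and 12 in the 7 with it, and in C14 it was 12 in the 11 without and 26 in the 7 with it. Over all loci these medians were 6 and 13 in C13, and 13 and 30 in C14. The members overlapped between these classes: unshared C14 loci reached pileups of 36 and 39, and shared C13 loci went down to 6.

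The summits of the shared loci nearly coincided. They were 0 to 31 bp apart with a median of 6 bp, where the median was 18 bp over the 159 overlapping pairs, these 7 included, in which each interval held 1 summit and met 1 interval of the other list. At the locus with the highest pileup both summits were at 28731448. The overlaps were 190 to 363 bp long, close to the full width of the narrower interval. In each shared locus the summit was also well inside the interval, at least 78 bp from its nearest end in C13 and 89 bp in C14. Among the members without overlap this distance went down to 12 bp in C13 and 10 bp in C14, with medians of 52.5 and 71 bp. In the whole lists the medians of shared and unshared loci were closer, 86 and 85 bp in C13 and 94 and 85 bp in C14. The lowest distances among the members were at chr27:28460603-28460884 (summit 28460872, 12 bp from the end) in C13 and, in C14, at the strong loci chr27:28769581-28769790 (summit 28769780, 10 bp) and chr27:28848535-28848762 (summit 28848744, 18 bp).

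All 7 shared loci had a higher pileup in C14, as did 99.4% of these 159 pairs. From the TTI2 side to the RNF122 side, the pileup went from 6 in C13 to 21 in C14 (ratio 3.50, exact conditional 95% interval 1.37 to 10.6), from 8 to 18 (2.25, 0.931 to 5.98), from 15 to 25 (1.67, 0.845 to 3.40) and from 12 to 28 (2.33, 1.15 to 5.04). Of these 4 TTI2 loci, 2 had an interval above 1. At the 3 RNF122 loci it went from 12 to 61 (5.08, 2.71 to 10.4), from 6 to 26 (4.33, 1.74 to 12.9) and from 15 to 27 (1.80, 0.924 to 3.64). The median ratio was 2.33, and that of the 159 pairs was 2.47. More than 2 times the C13 pileup was found at 5 of the 7, and at 72.3% of the 159 pairs. The interval of 6 of the 7 ratios held the median of the 159 pairs; only that of the locus at 61 fragments lay above it.

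The size of the difference depended on the scale. The lowest local background was 2.66 times higher in C14 than in C13, and when each pileup was divided by it the median ratio became 0.877, and that of the 159 pairs 0.929. Divided by the median pileup of its list, it was 1.17, and that of the 159 pairs 1.24. Each of these scalings divides all loci of a list by 1 constant, so the shift is no property of the members. Whether the lowest background measures depth was not tested, and the read totals and mapping ratios of the study were not used as a scale. On the scale of fold enrichment, the median ratio of the shared members was 1.52, with 6 of 7 higher in C14 (85.7%, Wilson 95% interval 48.7% to 97.4%, where 49.7% of the 159 pairs were) and values from 0.639 to 2.64, and that of the 159 pairs was 0.996. The exception was the TTI2 locus at chr27:28679046-28679442, where the background was 7.36 times higher in C14. Over the 7 loci the background ratio had a median of 4.09, and over the 159 pairs 5.86. The part of background in the difference on this scale was not tested.

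**Figure D4:**
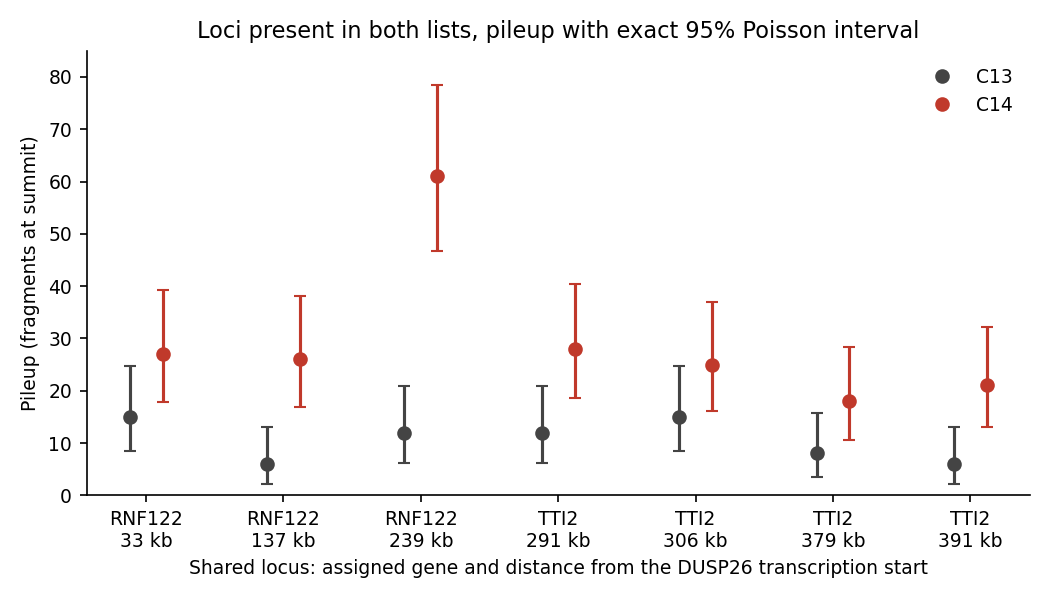
Pileup (fragments at the summit, axis from 0) of the 7 loci present in both lists, in C13 (grey) and C14 (red), ordered by distance from the DUSP26 TSS, with exact 95% Poisson intervals. C14 is higher at each locus, from 18 to 61 against 6 to 15, and the widest gap is at the RNF122 locus at a pileup of 61.

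The loci without a counterpart were spread along the same stretch. Of the 6 C13 members that overlapped nothing in C14, the nearest C14 locus was between 4638 and 25406 bp away. The 10 intron loci of C14 without overlap lay between 3370 and 25406 bp from a C13 locus. When intervals up to 10 kb apart were counted as shared, 10 of 13 C13 members (70.8% of all C13 loci) and 13 of 18 C14 members (56.8% of all C14 loci) were. With intervals of 49.7% to 91.8% and 49.1% to 87.5%, both shares held that of the list. These included strong C14 loci, such as that at a pileup of 28 on the TTI2 side and that at 36 on the RNF122 side, the latter 9995 bp from the closest C13 interval. The locus at 39 fragments had no C13 locus within 15095 bp. Whether C13 had fragments at these positions below the threshold was not analysed here.

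Other genes of the same pathways had no listed locus, but loci were rare among genes: 0.849% of the 21666 protein-coding genes of the ARS-UCD2.0 table had one in C13 and 1.29% in C14. Of the 13 genes of the TTT complex, the kinases it serves and their partners, only TTI2 was listed in either bull, and ATM, ATR, MTOR, PRKDC, TELO2 and TTI1 were not. Among 14 transmembrane RING finger ligases, of which 13 were found in that table (RNF133 was not), RNF122 alone was listed, in both bulls. DUSP26 was the only one of 25 dual-specificity phosphatases with a DUSP symbol, in C14 alone. None of the 10 genes of 8-oxoG base excision repair, OGG1, MUTYH and APEX1 included, had a locus in either list. At such shares, lists of 10 to 25 genes are too short for the absence of a locus to be informative, and TTI2, RNF122 and DUSP26 themselves were chosen for having one.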

How the data were processed

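Sperm DNA of the bulls C13 and C14 was enriched for 8-oxoG and sequenced beside input DNA, 1 library of each per bull. Reads were aligned to bosTau8 by the authors, and duplicates were taken out in Picard. MACS2 called the peaks of each bull against its input, and ChIPseeker assigned each to the nearest TSS. They kept loci with a fold enrichment over 2 and a q under 0.05. The pileup deposited by the authors is a signal in fragments at the summit, not normalized between bulls. The deposited p and q are −log10 values, and the deposited fold enrichment is a ratio to the local background with 1 added to both. No value of the 370 C13 or 614 C14 records was out of range.

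Members were all rows with the symbol TTI2, RNF122 or DUSP26. Members, gene lists and alternatives were chosen with earlier results of these data known. The named genes were all member loci, the C14 promoter loci compared with DUSP26, the nearest listed loci on either side and any gene of the gene lists with a locus. Local background was computed as (pileup + 1) / fold enrichment − 1. With it, the Poisson −log10 p was recomputed to within a relative difference of 4.39e-06. The lowest background, 0.135 in C13 and 0.359 in C14, was used as a scale for depth, and whether it measures depth was not tested. Loci were shared at an overlap of at least 1 bp. Ratios and summit offsets of the members, which have 1 summit per interval, were set against the 159 pairs of that kind, a choice made after the data were seen. Intervals are 95% (Wilson for shares, exact Poisson for counts, exact conditional binomial for ratios) and, as loci are not replicates, no p-value was computed. Python 3.11.15, pandas 2.3.3, scipy 1.17.1 and matplotlib 3.10.9 were used, and interval and overlap code was tested on simulated data. Alternatives were stricter q, other overlap rules and other scales. ARS-UCD2.0 RefSeq names matched 351 of 353 gene numbers, and of that table only names, gene order and the span of RNF122 were used.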

Additional observations from a re-analysis of the deposited data

How the results depend on the processing

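Of 35 alternatives, 26 left their value within 1.5 times for a count or within counting error for a level, 8 moved it and 1 took a ratio below 1. Any change of the DUSP26 distance was counted as moved. The tally also set fold enrichment against pileup, and runs against GG steps, by the same rule. These are different scales, so their labels say nothing on stability. The C13 members fell from 13 to 8, and those of C14 from 18 to 13, when a −log10 q of 5 or more was required. The share of all loci that passed was not counted, but the list medians, 7.90 in C13 and 9.20 in C14, were above this threshold. Counting intervals no more than 10 kb apart as shared raised the C14 members with a C13 counterpart from 7 to 13, and 56.8% of all C14 loci were shared by this rule. The median C14 to C13 pileup ratio of the shared members, 2.33, became 1.17 with pileup divided by the median of its list, 1.52 with fold enrichment and 0.877 with pileup divided by the lowest local background. The last scaling divides every locus of a list by the same value and took the 159 pairs to 0.929 as well. That the lowest background measures depth was not tested, and the read totals and mapping ratios of the study were not used as a scale. As fold enrichment, the median of the C13 members was 6.99, below the 7.56 of the list, whereas their median pileup, 11, was above its 9. That of the C14 members was 10.3, where the list had 6.76. The DUSP26 locus was 1140 bp from its TSS by the near end, 1224 bp by the summit and 1359 bp by the far end, and it held 4.55 runs of at least 3 G or 3 C per 100 bases. All were chosen with earlier results known, and 3 were added after the values given here had been seen: the C14 loci of at least the median pileup, with 7 shared members, the C14 count without DUSP26, 17, and the pairs of intervals with 1 summit each, which left the median ratio at 2.33. No paired analysis was possible because each group held 1 library. Without replicates, the spread between animals and between libraries is unknown, and at pileups of 5 to 15 the counting interval alone spans a factor of over 2.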
